A study of Mus musculus with 6 samples.

Results

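The 35 genes described here time entry into mitosis, build the spindle, hold the checkpoint that guards it and separate the chromosomes, and they were listed by name as mitosis and G2/M genes, with earlier results of these data known. All 35 were found by symbol among the 22600 genes of the count table, and all 35 were among the 15535 genes that passed the filter on low counts. RNA was sequenced from mouse embryonic stem (ES) cells and from FLICs, the submitters' name for cells differentiated from ES cells, with the way they were made not given in the sources used here. The 4 groups were FLICs with OHT (n = 1), untreated FLICs (n = 1), ES cells with OHT (n = 2) and untreated ES cells (n = 2). By their labels, the OHT-treated cells were TRF2-/- and had OHT for 3 days, while the untreated cells were wild-type. The cells of every group were on a C57BL/6 background and were cultured for 96 h. OHT, hydroxytamoxifen, is used to switch on a Cre recombinase, and TRF2, the product of Terf2, protects chromosome ends. Neither the Cre nor the Terf2 allele is named in the labels, and TRF2 was lost in every group that had OHT, so OHT and the loss of TRF2 cannot be told apart.

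Mitotic genes are periodic: their transcripts are low in G1, climb through S phase and peak in G2 and mitosis. In the quiet part of the cycle the DREAM complex sits on CHR elements (cell cycle genes homology regions) of their promoters and keeps them off, and in G2 the MuvB core, with B-Myb and then FOXM1, turns them on from the same elements, often beside CCAAT boxes bound by NF-Y. ES cells have a short G1 phase, so a large share of a culture is in S, G2 or M at any time. In bulk RNA, fewer cells in G2 and M and less mitotic RNA per cell cannot be told apart.

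Total counts ran from 23534551 to 43965309 per library, and counts of the 35 genes from 401 for Cdc25c to 42568 for Top2a in a single library. Terf2, the targeted gene, had 5 counts in OHT-treated FLICs and 268 in untreated FLICs, and 9 and 10 counts in OHT-treated ES cells against 554 and 732 in untreated ES cells. All 10 ES cell markers were called lower in FLICs than in ES cells, both untreated. Of 10 mesenchymal markers, 9 were called higher and 1 lower, the latter at a log2 fold change of -3.02. Over all genes, 26.2% were called higher and 28.7% lower in this comparison. The summed level of the ES cell markers was 97.6 CPM (counts scaled to library size with TMM factors) in OHT-treated FLICs and 152 CPM in untreated FLICs, against 3864 to 4483 CPM in the 4 ES cell libraries, with Zfp42 at 0 in both FLICs libraries. The mesenchymal markers summed to 24752 CPM in OHT-treated FLICs and 19206 CPM in untreated FLICs, and to 1395 to 2291 CPM in ES cells, with Postn at 0 in 3 of the 4 ES cell libraries. Trp53, which encodes p53, stood at 7.82 CPM in OHT-treated FLICs and 8.98 CPM in untreated FLICs, and at 8.39 and 83.1 CPM in OHT-treated ES cells against 299 and 345 CPM in untreated ES cells. The labels name no Trp53 genotype, and the part of Trp53 in the results below was not tested. The OHT-treated ES cell libraries differed from each other more (chi-square per degree of freedom 57.1) than the untreated ones (11.5), and results that rest on a single ES cell library are given with and without it. Whether the 2 libraries of an ES cell group are separate cultures is not stated, and p-values therefore cover only the spread between libraries, which may be technical.

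Promoter sequence is shown for the 7 genes that differed between FLICs and ES cells both with and without OHT and for which RefSeq holds a promoter window on GRCm38.p6, since CHR and CCAAT letters are the textbook marks of this gene family. Each stretch runs 5′ to 3′ on the gene's strand from 110 bases before the annotated start to 50 bases after it. Capitals mark the CHR letters TTTGAA, or TTCAAA where they lie on the other strand, and the NF-Y letters CCAAT, or ATTGG on the other strand. The 3 genes that were higher in FLICs come before the 4 that were lower. Nuf2 is at chr1:169531415-169531574 on the minus strand, Ndc80 at chr17:71526808-71526967 on the minus strand and Cdc25b at chr2:131186838-131186997 on the plus strand. Espl1 is at chr15:102296183-102296342 on the plus strand, Cenpf at chr1:189688037-189688196 on the minus strand, Cdc20 at chr4:118437294-118437453 on the minus strand and Kif2c at chr4:117178723-117178882 on the minus strand.
Nuf2: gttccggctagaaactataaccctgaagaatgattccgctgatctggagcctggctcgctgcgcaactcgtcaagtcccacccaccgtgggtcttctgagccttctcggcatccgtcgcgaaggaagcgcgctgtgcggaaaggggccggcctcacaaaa
Ndc80: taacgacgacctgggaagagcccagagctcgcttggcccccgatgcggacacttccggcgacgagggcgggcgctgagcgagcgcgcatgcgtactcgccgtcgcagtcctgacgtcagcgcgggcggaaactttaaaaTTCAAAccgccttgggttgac
Cdc25b: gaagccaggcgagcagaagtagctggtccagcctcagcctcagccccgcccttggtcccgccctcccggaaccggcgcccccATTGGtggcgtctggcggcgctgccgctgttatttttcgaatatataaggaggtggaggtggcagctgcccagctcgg
Espl1: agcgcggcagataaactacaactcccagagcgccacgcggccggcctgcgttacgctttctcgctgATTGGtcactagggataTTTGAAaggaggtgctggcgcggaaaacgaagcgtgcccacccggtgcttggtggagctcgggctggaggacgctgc
Cenpf: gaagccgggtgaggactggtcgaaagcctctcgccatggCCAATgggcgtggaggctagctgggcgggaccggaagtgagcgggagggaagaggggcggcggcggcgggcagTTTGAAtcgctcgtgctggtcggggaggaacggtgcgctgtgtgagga
Cdc20: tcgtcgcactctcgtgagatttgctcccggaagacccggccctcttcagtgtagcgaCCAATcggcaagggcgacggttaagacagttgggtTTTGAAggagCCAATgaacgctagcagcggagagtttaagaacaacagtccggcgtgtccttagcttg
Kif2c: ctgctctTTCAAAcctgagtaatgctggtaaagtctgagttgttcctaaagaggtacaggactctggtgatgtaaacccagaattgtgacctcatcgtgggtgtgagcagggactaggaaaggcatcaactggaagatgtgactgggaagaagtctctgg

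In the stretches above, Espl1, Cenpf and Cdc20 carry both kinds of letters, Kif2c and Ndc80 only the CHR letters, Cdc25b only the CCAAT letters and Nuf2 neither. The annotated RefSeq start of Kif2c lies inside the gene as GENCODE M21 draws it, so its window may not be the promoter in use. Over the whole windows of 300 bases (250 before the start and 50 after it), which were found for 27 of the 35 genes, TTTGAA stood in 18 (66.7%), against 20.2% of the 27025 genes with a window. CCAAT stood in 20 of the 27 (74.1%), against 41.1% of all genes, and both kinds together in 16 (59.3%), against 8.0%. Within 50 bases of the start, 17 of the 27 (63.0%) had TTTGAA, against 6.0% of all genes. Of the genes called lower in untreated FLICs, described below, 6 of the 6 with a window held TTTGAA, as did 10 of the 16 not called and 2 of the 5 called higher (Cenpa and Ndc80). Other spindle and cytokinesis genes held TTTGAA in 23 of 32 windows (71.9%), and genes of G1/S and DNA replication in 5 of 30 (16.7%). CHR and CCAAT matches did not overlap in these windows, although a forward and a reverse CCAAT match of Ube2c share letters. TTTGAA was the only form of the CHR letters searched, on both strands, and a gene without it may hold another form. These matches describe the letters only and are not binding sites that were measured.

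**Figure D1:**
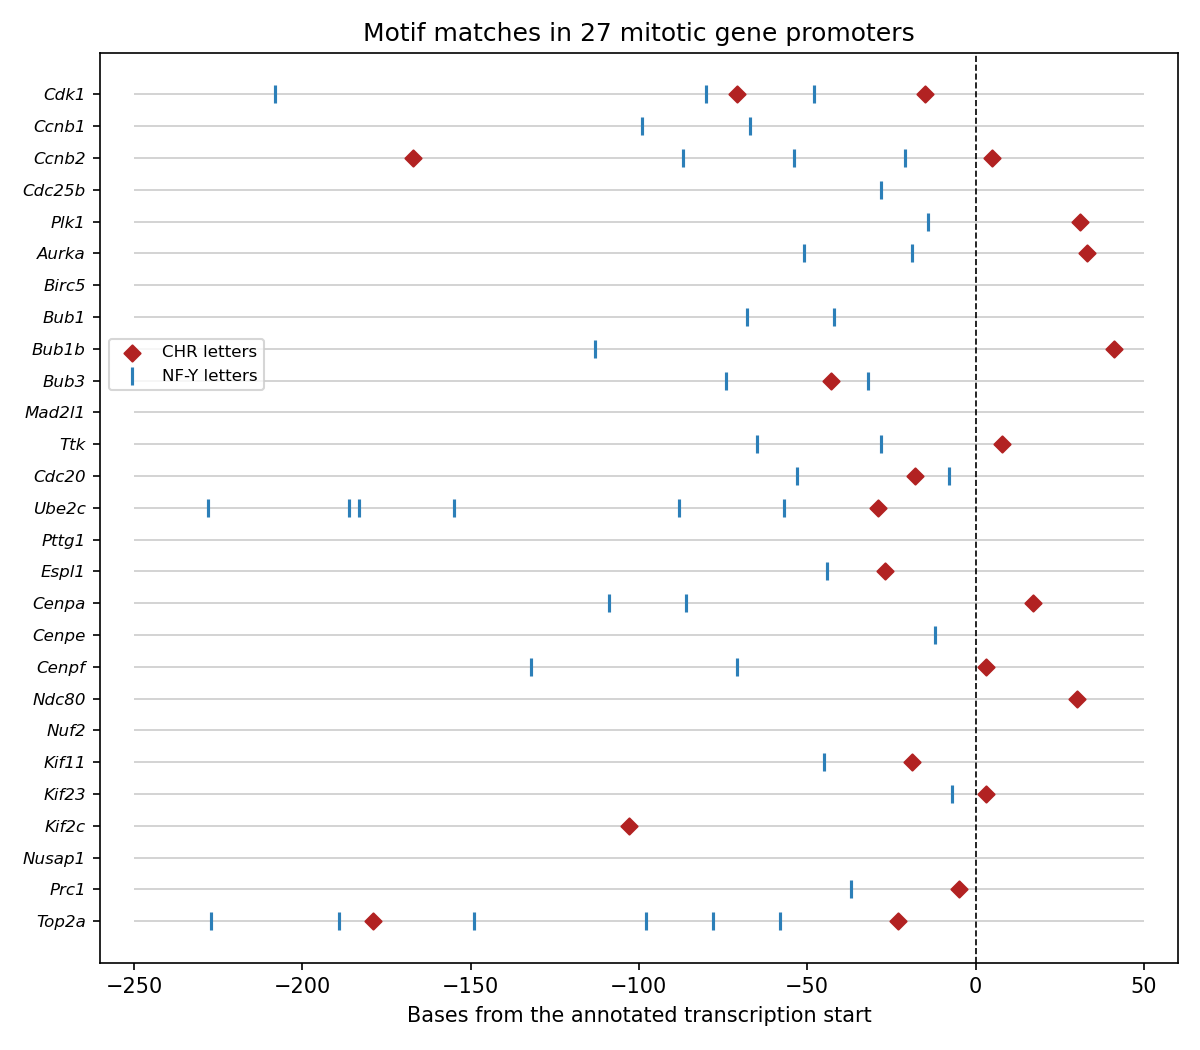
Positions of the CHR letters (diamonds, TTTGAA on either strand) and the NF-Y letters (ticks, CCAAT on either strand) in the promoter windows of 27 mitotic genes, in bases from the annotated start (dashed line). CHR letters stand within 50 bases of the start in 17 of the 27 genes, and Nuf2, Mad2l1, Birc5, Pttg1 and Nusap1 have neither motif.

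The 35 genes made up a similar part of the RNA in every library. Their summed level was 6848 CPM in OHT-treated FLICs and 7133 CPM in untreated FLICs, and 8442 and 7204 CPM in OHT-treated ES cells against 8562 and 8141 CPM in untreated ES cells. As a share of the counted reads this was 0.681% in OHT-treated FLICs and 0.715% in untreated FLICs, against 0.781% to 0.858% in the ES cell libraries. Both FLICs libraries thus lay below each ES cell library on both measures. In CPM the margin was small for OHT-treated ES cell replicate 2 (7204, against 7133 in untreated FLICs). As a share of reads, that library had 0.781% against 0.715%.

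Levels per length (CPM per kb of the deposited gene length) put the same gene first in all 4 groups. Ube2c, the ubiquitin-conjugating enzyme that works with the anaphase-promoting complex, ranked 1 in each group, with 419.5 CPM per kb in OHT-treated FLICs and 425 in untreated FLICs, and 488 in OHT-treated ES cells against 483 in untreated ES cells. In untreated ES cells it was followed by Birc5 (340.0 CPM per kb), Ccna2 (309), Cdc20 (246) and Top2a (245). The genes that set the phosphate on CDK1 were at the low end. Cdc25c had the lowest level in untreated ES cells (14.1 CPM per kb), and Wee1 the lowest in OHT-treated FLICs (14.5) and in untreated FLICs (15.4). Nuf2 ranked 13 in untreated FLICs and 23 in untreated ES cells, Mad2l1 ranked 5 in untreated FLICs and 12 in untreated ES cells, and Cdc20 ranked 11 in untreated FLICs and 4 in untreated ES cells. Neighbours in the order often did not differ beyond their spread: Cdc20 and Top2a, for example, were at 246 and 245 CPM per kb in untreated ES cells, while the 2 libraries of Cdc20 alone were at 388 and 349 CPM.

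**Figure D2:**
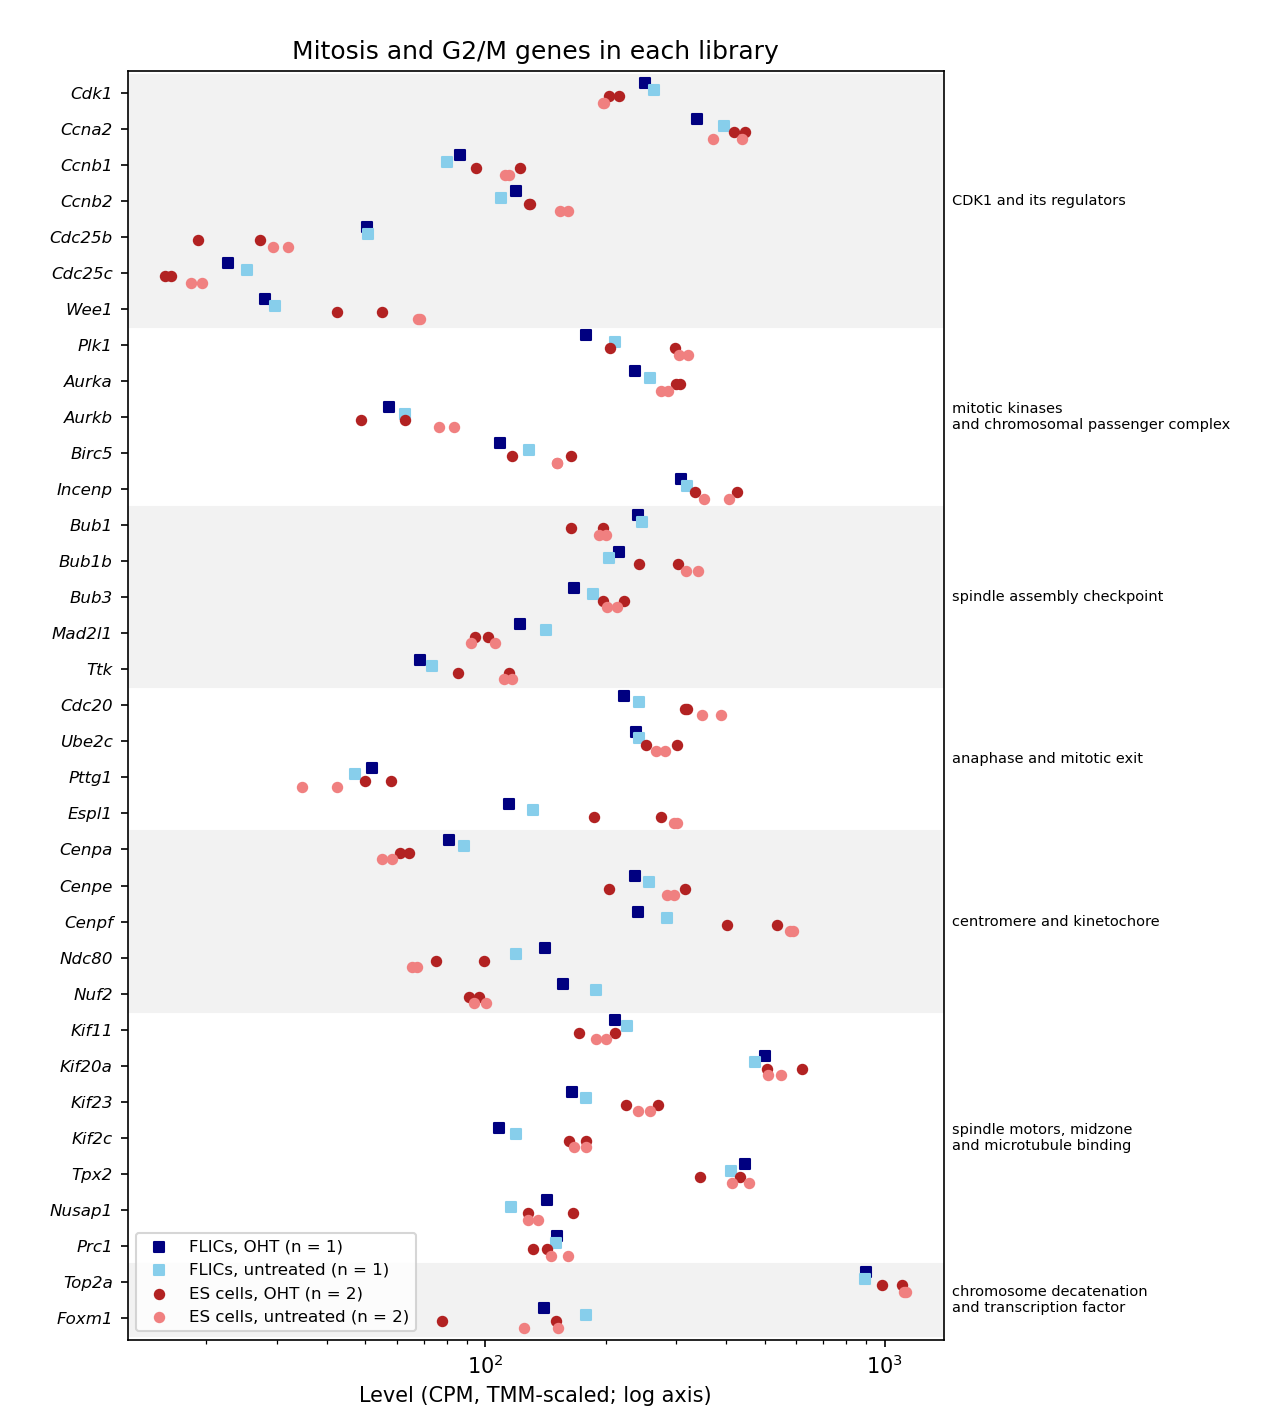
Level (CPM, TMM-scaled, log axis) of each of the 35 genes in each library, grouped by role, with squares for FLICs and circles for ES cells, and darker shades for OHT. For most genes the 6 points lie close together on the log axis. Both squares lie left of all circles for Wee1, Espl1 and Cenpf, among others. They lie right of all circles for Nuf2, Ndc80 and Cdc25b, among others. The share of all genes with such an order is not given here.

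With OHT, no mitotic gene was called in ES cells, in a comparison that asks how the loss of TRF2 bears on the transcriptome. By edgeR's quasi-likelihood test at an adjusted p of 0.05, 0 of the 35 were higher and 0 lower, where 0.521% of all genes were called higher and 0.0129% lower. At an unadjusted p under 0.05 there were 3 of 35 (Pttg1 higher, Aurkb and Wee1 lower), against 18.3% of all genes, and DESeq2 called 0 of 35, against 2.54% of all genes. The smallest adjusted p was 0.204 (Aurkb). Log2 fold changes ran from -0.52 (Aurkb) to 0.49 (Pttg1), with 24 negative, 11 positive and a median of -0.10, against -0.01 over all genes. The 95% interval of the difference lay within 2-fold in either direction for 34 of the 35 genes, with Foxm1 as the exception (-1.06 to 0.50). Both OHT libraries lay below both untreated libraries for 12 of the 35 genes, against 27.6% of all genes, and above them for 5 of the 35, against 25.2% of all genes.

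How many genes were called depended on which OHT-treated ES cell libraries were kept. OHT replicate 2 was lower than OHT replicate 1 for 26 of the 35, and untreated replicate 2 was lower than untreated replicate 1 for 27 of the 35. The median difference on the log2(CPM + 1) scale was -0.26 for the OHT pair and -0.08 for the untreated pair, where over all genes it was -0.0028 and -0.0064. The median absolute difference of the OHT pair was 0.29 over the 35 and 0.27 over all genes. The widest gap was at Foxm1, the transcription factor that drives G2 and M genes, with 150.3 CPM in OHT replicate 1 and 78.1 CPM in OHT replicate 2. A size rule (at least 2-fold on this scale and a mean of at least 1 CPM) was met by 0 of 35 genes between the OHT replicates, against 3.7% of all genes, and by 0 of 35 between the untreated replicates, against 0% of all genes. Without OHT replicate 1, edgeR called 1 gene higher and 11 lower (19.9% and 20.3% of all genes), and the median became -0.19. Without OHT replicate 2, it called 3 genes higher and 2 lower (14.9% and 13.9% of all genes), and the median became 0.05. Pttg1, higher, and Aurkb, lower, were called without either replicate. In these fits the spread comes from the untreated pair alone. Trp53, at 8.39 CPM in OHT replicate 1 and 83.1 CPM in OHT replicate 2, separated the same 2 libraries, and its part was not tested.

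In FLICs, 0 of the 35 genes met the size rule between the OHT-treated and the untreated library, against 0.526% of all genes. There is no replicate here and no test. Differences ran from -0.35 for Foxm1 (140.3 CPM with OHT, 179 CPM untreated) to 0.30 for Nusap1 (143 CPM with OHT, 116 CPM untreated) on the log2(CPM + 1) scale. They were negative for 25 genes and positive for 10, with a median of -0.10, against 0.03 over all genes. The test of the difference itself, the OHT difference in FLICs minus that in ES cells, called 0 genes higher and 0 lower by edgeR, as it did over all genes (0% and 0%). None of the 35 had an unadjusted p under 0.05, against 6.8% of all genes, and DESeq2 called 0, against 0.176% of all genes. For 26 of the 35 the 95% interval of this difference lay within 2-fold, against 4898 of all 15535 genes. Without ES OHT replicate 1, however, 3 genes were called higher, and without ES OHT replicate 2, 1 gene, where 11.7% and 8.55% of all genes were called higher.

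Between FLICs and ES cells, single mitotic genes differed in both directions. Untreated FLICs against untreated ES cells had 5 genes called higher (Nuf2, Ndc80, Cdc25b, Cenpa and Mad2l1) and 7 lower (Wee1, Espl1, Cenpf, Bub1b, Cdc20, Kif2c and Ccnb2). Over all genes, 26.2% were called higher and 28.7% lower. The median absolute log2 fold change was 0.42 over the 35 and 1.03 over all genes, and the median was -0.18 over the 35 and -0.11 over all genes. With OHT in both cell types, 3 genes were called higher (Cdc25b, Nuf2 and Ndc80) and 6 lower (Espl1, Cenpf, Wee1, Kif2c, Kif23 and Cdc20), against 28.4% and 29.3% of all genes. The corresponding median was -0.17 over the 35 and -0.07 over all genes.

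These 2 comparisons share no library. The log2 fold change had the same sign in both for 31 of the 35 genes, and 8 genes were called in the same direction in both, 3 higher and 5 lower. The shares with the same sign were near each other, 88.6% of the 35 and 89.5% of all genes. The 8 genes are 22.9% of the 35, where 47.4% of all genes were called in the same direction in both. They make up 66.7% of the members' calls without OHT and 88.9% of those with OHT, against 86.2% and 82.1% over all genes. Pearson's r between the fold changes was 0.92 across the 35 and 0.92 across all genes, given as a description over genes, and each comparison used a single FLICs library. Each lone FLICs library is assumed to vary like the ES cell libraries. With an untreated ES cell library left out, the spread comes from the OHT-treated pair alone, also where that library is not compared. With an OHT-treated one left out, it comes from the untreated pair alone. Without untreated ES replicate 1 the comparison of untreated cells had 1 gene called higher and 2 lower, and without untreated ES replicate 2 it had 0 higher and 2 lower. The comparison with OHT had 1 higher and 2 lower without either of these libraries. Without ES OHT replicate 1 there were 10 higher and 13 lower in untreated cells and 9 higher and 10 lower with OHT, and without ES OHT replicate 2 there were 10 higher and 13 lower in untreated cells and 5 higher and 16 lower with OHT. Over all genes, the fits without an OHT library called from 36.6% to 41.8% in each direction, and those without an untreated library from 16.2% to 22.2%. Every call named above was lost without 1 or both of the untreated ES cell libraries, apart from those that follow. Espl1 was the only gene called in both comparisons under all 9 alternative fits, while Wee1 held in all 9 without OHT, and Cenpf and Cdc25b in all 9 with OHT. Some of the other calls were also lost when all libraries were kept and the scaling, filter or model changed, as given below.

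**Figure D3:**
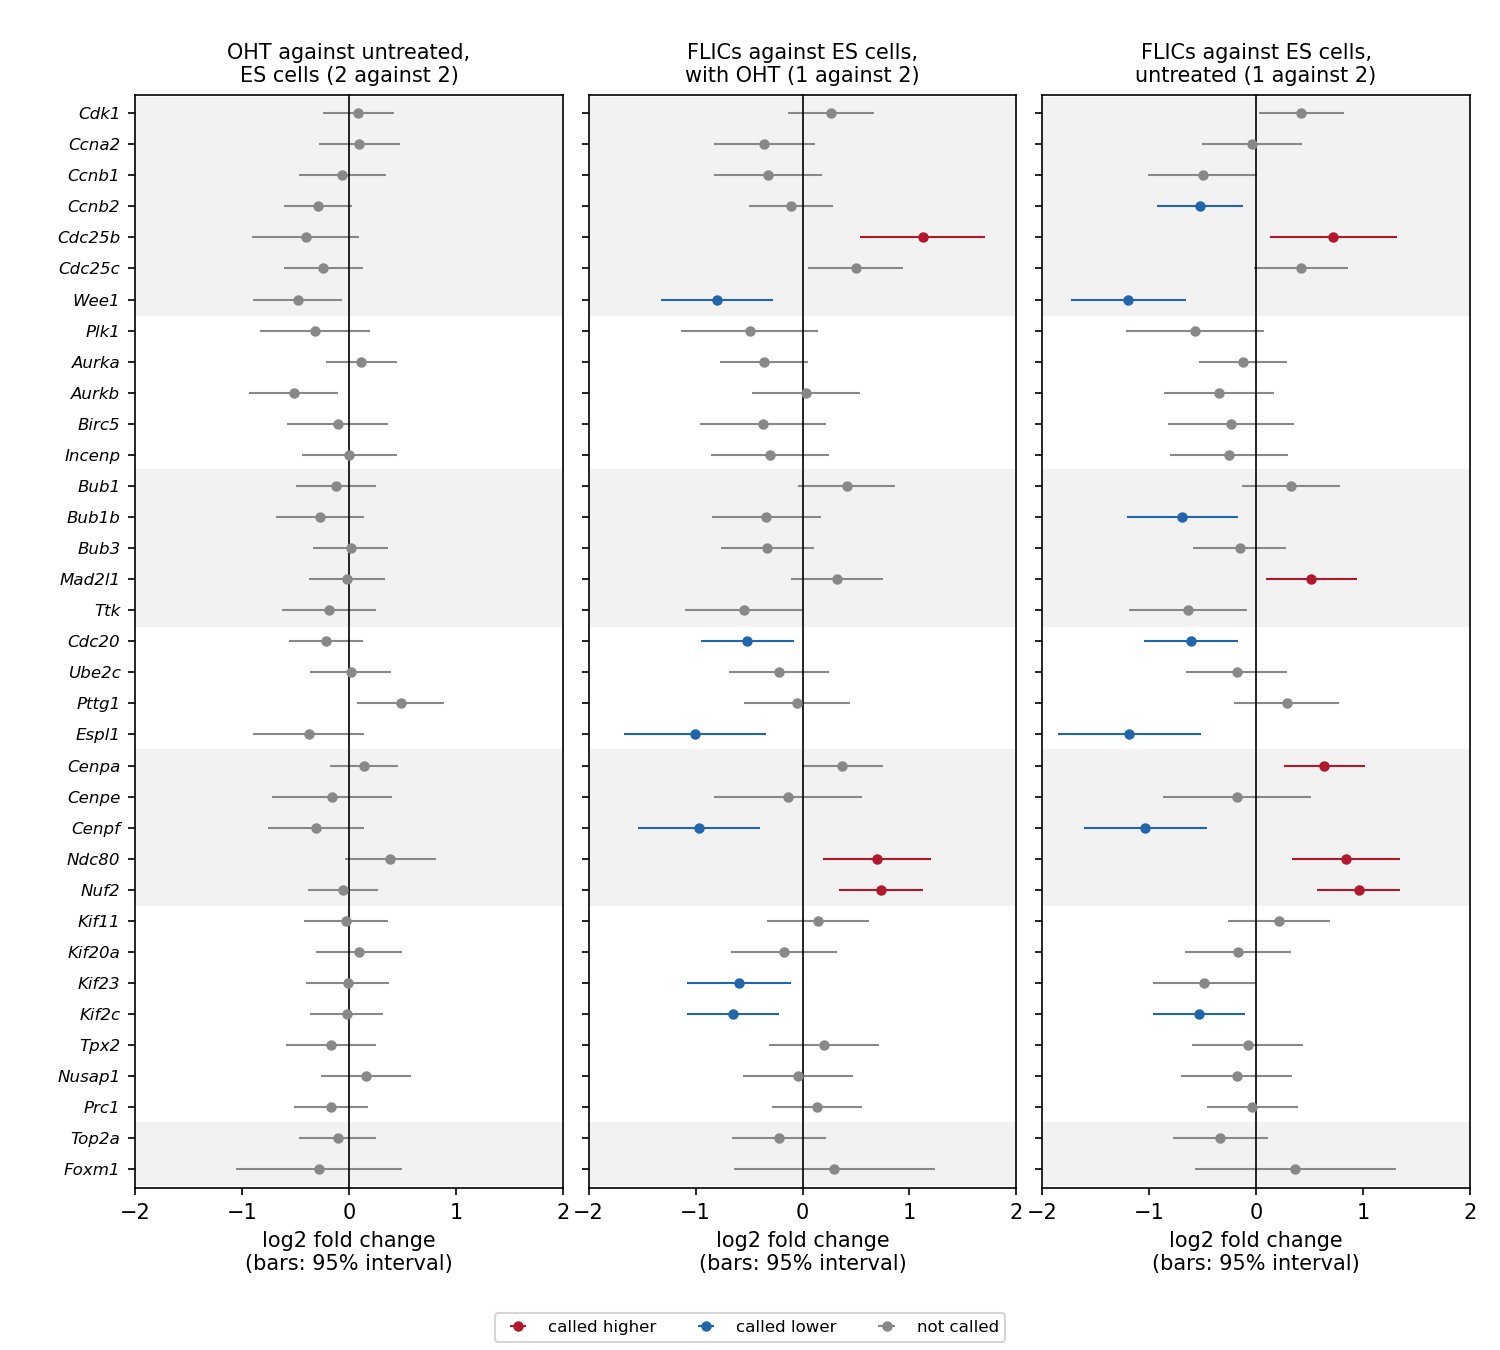
Log2 fold change with its 95% interval for each gene in ES cells with OHT against untreated (left), in FLICs against ES cells with OHT (middle) and in FLICs against ES cells untreated (right), coloured by edgeR call. No gene is called on the left, 9 are called in the middle and 12 on the right.

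**Figure D4:**
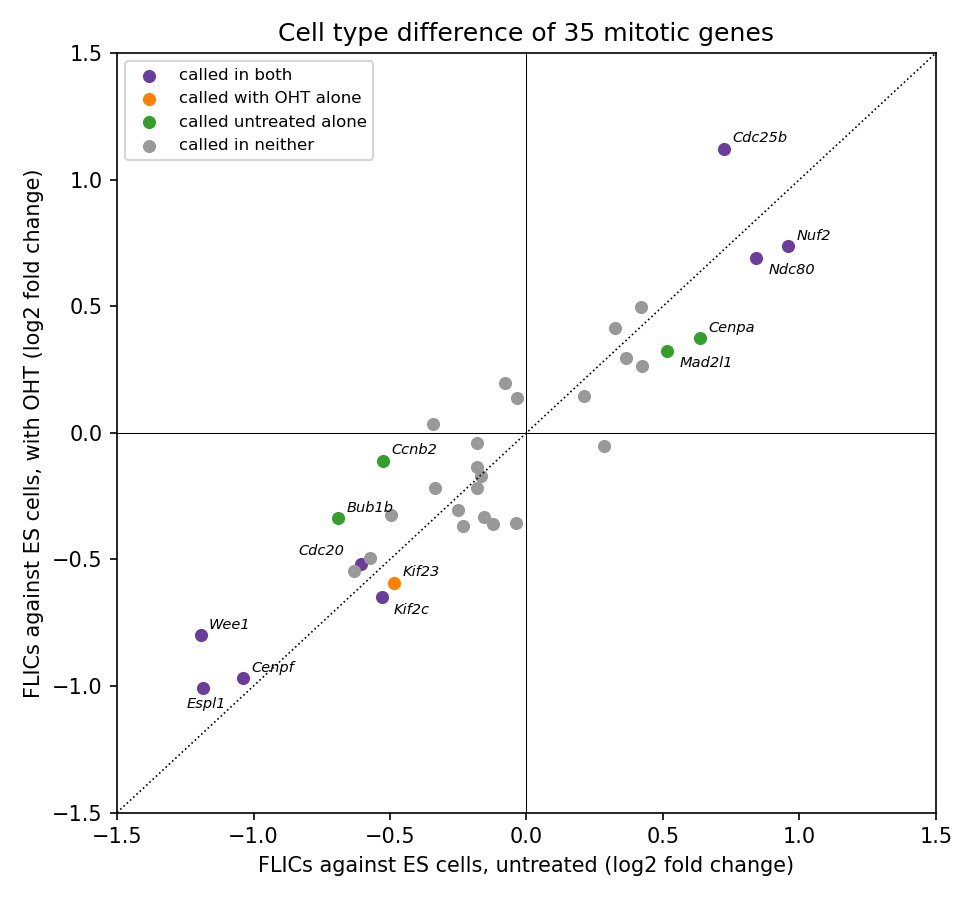
Log2 fold change of FLICs against ES cells without OHT (horizontal axis) and with OHT (vertical axis) for the 35 genes, with the line of equal values dotted. The 8 genes called in both lie in the lower left (Espl1, Wee1, Cenpf, Cdc20 and Kif2c) and upper right (Nuf2, Ndc80 and Cdc25b) of the plot, with Wee1 and Cdc25b set well above the line.

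CDK1 and its regulators included genes that were higher and genes that were lower in FLICs. Cdk1, the kinase whose activity drives entry into mitosis, had 252 CPM in OHT-treated FLICs and 265 CPM in untreated FLICs, against 203 and 215 CPM in OHT-treated ES cells and 196 and 198 CPM in untreated ES cells. Both FLICs libraries were above all 4 ES cell libraries, but the difference between untreated cells was not called (edgeR adjusted p = 0.0685), at 0.42 ± 0.16 (here and below a log2 fold change with its standard error), though DESeq2 called it higher. Of its cyclin partners, Ccnb2 had 119 CPM in OHT-treated FLICs and 109.6 CPM in untreated FLICs, against 128 and 129 CPM in OHT-treated ES cells and 161 and 154 CPM in untreated ES cells. FLICs were the lowest for this gene, OHT-treated ES cells next and untreated ES cells the highest, with no overlap between the 3. Without OHT, Ccnb2 was lower in FLICs than in ES cells (-0.52 ± 0.16; edgeR adjusted p = 0.0370) and was not called with OHT (-0.11 ± 0.16). Ccnb1 differed by -0.50 between untreated cells and Ccna2 by -0.04, and neither was called.

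Wee1, the kinase that holds CDK1 inactive by phosphorylating it, and Cdc25b, a phosphatase that removes that phosphate, differed in opposite directions. Wee1 (ENSMUSG00000031016, chr7:110122046-110143286, plus strand; gene positions here and below are from GENCODE M21 on GRCm38) had 28.1 CPM in OHT-treated FLICs and 29.8 CPM in untreated FLICs, against 55.2 and 42.4 CPM in OHT-treated ES cells and 68.6 and 67.6 CPM in untreated ES cells. The 3 levels were separate: FLICs lowest, then OHT-treated ES cells, then untreated ES cells. Wee1 was lower in FLICs without OHT (-1.19 ± 0.22; edgeR adjusted p = 0.00579) and with it (-0.80 ± 0.21; edgeR adjusted p = 0.0215). In ES cells with OHT its change of -0.48 ± 0.17 was not called (edgeR adjusted p = 0.227). Cdc25b (ENSMUSG00000027330, chr2:131186949-131198497, plus strand) had 50.5 CPM in OHT-treated FLICs and 50.7 CPM in untreated FLICs, against 27.3 and 19.1 CPM in OHT-treated ES cells and 32.04 and 29.4 CPM in untreated ES cells. The 2 FLICs libraries were nearly equal and above all ES cell libraries, with OHT-treated ES cells at the bottom. Its log2 fold change was 0.72 ± 0.24 without OHT (edgeR adjusted p = 0.0456) and 1.12 ± 0.24 with OHT (edgeR adjusted p = 0.00962). Cdc25b overlaps Spef1 on the other strand, and whether the counting used strand is not given in the sources used here. Cdc25c, the other phosphatase of this step, had 22.6 CPM in OHT-treated FLICs and 25.3 CPM in untreated FLICs, against 16.3 and 15.7 CPM in OHT-treated ES cells and 19.5 and 18.3 CPM in untreated ES cells. It was above the ES cells in both FLICs libraries without being called in either comparison (edgeR adjusted p = 0.0929 without OHT).

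Among the mitotic kinases and the chromosomal passenger complex (Aurkb, Birc5 and Incenp, which corrects faulty attachments of chromosomes to the spindle), 0 of 5 genes were called in either comparison of FLICs with ES cells. Aurkb, the kinase of this complex, had 57.3 CPM in OHT-treated FLICs and 63.03 CPM in untreated FLICs, against 48.8 and 62.9 CPM in OHT-treated ES cells and 76.7 and 83.3 CPM in untreated ES cells. FLICs lay between untreated ES cells, which were the highest, and the lower of the OHT-treated ES cell libraries. In ES cells Aurkb had the lowest log2 fold change of the 35 with OHT, -0.52 ± 0.17, which was not called (edgeR adjusted p = 0.204). Plk1, polo-like kinase, had 179 CPM in OHT-treated FLICs and 211 CPM in untreated FLICs, against 299 and 205 CPM in OHT-treated ES cells and 321 and 305 CPM in untreated ES cells. OHT-treated ES cell replicate 2 was at the FLICs level while replicate 1 was near the untreated ES cells, and no difference was called (-0.57 ± 0.26 for untreated FLICs against untreated ES cells; edgeR adjusted p = 0.110). Birc5, which encodes survivin, had 117 and 164 CPM in OHT-treated ES cells, against 151 and 151 CPM in untreated ES cells, with the untreated pair inside the span of the OHT-treated pair. Aurka, needed for spindle poles, and Incenp, the scaffold of the passenger complex, differed by -0.12 and -0.25 between untreated FLICs and untreated ES cells.

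In the spindle assembly checkpoint, which delays anaphase until every chromosome is attached, Mad2l1 and Bub1b diverged. Mad2l1, which encodes MAD2, had 122 CPM in OHT-treated FLICs and 141 CPM in untreated FLICs, against 101 and 93.9 CPM in OHT-treated ES cells and 106 and 92.2 CPM in untreated ES cells. Both FLICs libraries were above all ES cell libraries, and the difference was called without OHT (0.51 ± 0.17; edgeR adjusted p = 0.0470) but not with OHT (0.32 ± 0.17; edgeR adjusted p = 0.157). Bub1b, which encodes BUBR1, had 216 CPM in OHT-treated FLICs and 204 CPM in untreated FLICs, against 304 and 242 CPM in OHT-treated ES cells and 341 and 319 CPM in untreated ES cells. It was lowest in FLICs, and OHT-treated ES cells lay between these and the untreated ES cells. The call for Bub1b was likewise made without OHT (-0.69 ± 0.21; edgeR adjusted p = 0.0353) and not with OHT (-0.34 ± 0.21; edgeR adjusted p = 0.207). Bub1 (0.33), Bub3 (-0.15) and the checkpoint kinase Ttk (-0.63) were not called between untreated cells, although DESeq2 called Ttk lower in both comparisons.

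Genes of anaphase and mitotic exit held Espl1, the gene whose lower level in FLICs was called in every fit tried, and 3 others. Espl1, the gene of separase, the protease that cuts cohesin to release sister chromatids (ENSMUSG00000058290, chr15:102296266-102324357, plus strand), had 115 CPM in OHT-treated FLICs and 132 CPM in untreated FLICs, against 275 and 187 CPM in OHT-treated ES cells and 302 and 297 CPM in untreated ES cells. The FLICs libraries were far below the others, OHT-treated ES cell replicate 2 came next, and the untreated ES cells were the highest. Espl1 was lower in FLICs, with a log2 fold change of -1.18 ± 0.27 without OHT (edgeR adjusted p = 0.0133) and -1.01 ± 0.27 with OHT (edgeR adjusted p = 0.0218). Pttg1, the gene of securin, which holds separase inactive, had 52.1 CPM in OHT-treated FLICs and 47.01 CPM in untreated FLICs, against 49.95 and 58.03 CPM in OHT-treated ES cells and 34.7 and 42.4 CPM in untreated ES cells. Untreated ES cells were the lowest group and the other libraries overlapped. In ES cells Pttg1 had the highest log2 fold change of the 35 with OHT, 0.49 ± 0.16, which was not called (edgeR adjusted p = 0.218), and it was not called between cell types (0.29 ± 0.20 without OHT).

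Cdc20, the activator that points the anaphase-promoting complex at securin and cyclin B (ENSMUSG00000006398, chr4:118432901-118437352, minus strand), had 222 CPM in OHT-treated FLICs and 242 CPM in untreated FLICs, against 316 and 319 CPM in OHT-treated ES cells and 388 and 349 CPM in untreated ES cells. The 3 levels did not overlap, with FLICs at the bottom and untreated ES cells at the top. It was lower in FLICs without OHT (-0.61 ± 0.18; edgeR adjusted p = 0.0305) and with it (-0.52 ± 0.18; edgeR adjusted p = 0.0479), and it overlaps Elovl1 on the other strand. Ube2c, the gene with the highest level per length, had 239 CPM in OHT-treated FLICs and 242 CPM in untreated FLICs, against 302 and 253 CPM in OHT-treated ES cells and 282 and 267 CPM in untreated ES cells. Its FLICs libraries were the lowest by a small margin, and no difference was called (-0.18 ± 0.19 without OHT; edgeR adjusted p = 0.443).

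The centromere and kinetochore genes held 3 of the 5 genes that were higher in untreated FLICs and 1 of the 7 that were lower. Nuf2 (ENSMUSG00000026683, chr1:169497934-169531464, minus strand), a coiled-coil subunit of the NDC80 complex that grips spindle microtubules, had 156 CPM in OHT-treated FLICs and 189 CPM in untreated FLICs, against 91.1 and 96.2 CPM in OHT-treated ES cells and 100.3 and 93.8 CPM in untreated ES cells. All 4 ES cell libraries lay close together and both FLICs libraries well above them. Its log2 fold change was 0.96 ± 0.16 without OHT (edgeR adjusted p = 0.00398) and 0.74 ± 0.16 with OHT (edgeR adjusted p = 0.0101). Its partner Ndc80 (ENSMUSG00000024056, chr17:71496100-71526857, minus strand) had 141 CPM in OHT-treated FLICs and 119 CPM in untreated FLICs, against 98.97 and 75.3 CPM in OHT-treated ES cells and 67.6 and 65.7 CPM in untreated ES cells. FLICs were the highest, OHT-treated ES cells next and untreated ES cells the lowest. Ndc80 was higher in FLICs without OHT (0.84 ± 0.20; edgeR adjusted p = 0.0163) and with OHT (0.69 ± 0.20; edgeR adjusted p = 0.0304), and its difference with OHT in ES cells, 0.39 ± 0.17, was not called.

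Cenpa, the histone H3 variant that marks the centromere, had 81.3 CPM in OHT-treated FLICs and 88.3 CPM in untreated FLICs, against 61.2 and 64.2 CPM in OHT-treated ES cells and 58.5 and 55.2 CPM in untreated ES cells. FLICs were above all ES cells and OHT-treated above untreated ES cells. It was called without OHT (0.64 ± 0.15; edgeR adjusted p = 0.0159) but not with OHT (0.37 ± 0.15; edgeR adjusted p = 0.0831). Cenpf (ENSMUSG00000026605, chr1:189640606-189688086, minus strand), a large protein of the outer kinetochore and nuclear envelope, was lower instead, with 241 CPM in OHT-treated FLICs and 285 CPM in untreated FLICs, against 538 and 403 CPM in OHT-treated ES cells and 580.0 and 589 CPM in untreated ES cells. Both FLICs libraries were at the bottom, and both OHT-treated ES cell libraries lay under the untreated ones. Cenpf was lower in FLICs without OHT (-1.04 ± 0.23; edgeR adjusted p = 0.0124) and with OHT (-0.97 ± 0.23; edgeR adjusted p = 0.0150). Cenpe, a kinetochore motor, had 237 CPM in OHT-treated FLICs and 257 CPM in untreated FLICs, against 316 and 204 CPM in OHT-treated ES cells and 297 and 285 CPM in untreated ES cells. The OHT-treated ES cell replicates spanned the values of all other libraries. The 95% interval of its difference between untreated cell types ran from -0.87 to 0.51.

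Of the spindle motors, midzone and microtubule-binding genes, Kif2c and Kif23 were called and the other 5 were not. Kif2c, a kinesin that takes microtubules apart at their ends (ENSMUSG00000028678, chr4:117159639-117182639, minus strand), had 108 CPM in OHT-treated FLICs and 119 CPM in untreated FLICs, against 178 and 162 CPM in OHT-treated ES cells and 179 and 167 CPM in untreated ES cells. Both FLICs libraries were below all ES cell libraries, which overlapped each other. It was lower in FLICs without OHT (-0.53 ± 0.17; edgeR adjusted p = 0.0441) and with OHT (-0.65 ± 0.17; edgeR adjusted p = 0.0224). Kif23, the motor of the centralspindlin complex that guides cytokinesis, had 165 CPM in OHT-treated FLICs and 179 CPM in untreated FLICs, against 271 and 225 CPM in OHT-treated ES cells and 259 and 242 CPM in untreated ES cells. FLICs were again the lowest, and the call was made with OHT (-0.59 ± 0.20; edgeR adjusted p = 0.0437) but not without it (-0.48 ± 0.20; edgeR adjusted p = 0.0808). Kif11, the motor that pushes spindle poles apart (0.21), Kif20a (-0.17), Tpx2, which activates Aurora A (-0.08), Nusap1 (-0.18) and Prc1, which bundles midzone microtubules (-0.04), were not called between untreated FLICs and untreated ES cells. In ES cells with OHT the log2 fold changes of these 7 genes ran from -0.17 to 0.16.

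Top2a, the topoisomerase that untangles sister chromatids, had the highest CPM of the 35. Its levels were 898 CPM in OHT-treated FLICs and 892 CPM in untreated FLICs, against 1107 and 984 CPM in OHT-treated ES cells and 1115 and 1133 CPM in untreated ES cells. Both FLICs libraries were the lowest without a call (-0.33 ± 0.18 without OHT; edgeR adjusted p = 0.163). Foxm1 had 140.3 CPM in OHT-treated FLICs and 179 CPM in untreated FLICs, against 150.3 and 78.1 CPM in OHT-treated ES cells and 152 and 125 CPM in untreated ES cells. Groups overlapped, and its interval between untreated cell types was the widest of the 35, -0.57 to 1.30. Foxm1 overlaps Tex52 and Gm44596 on the same strand, and how reads were shared between them is not given in the sources used here. Annotated genes of the table also overlap Bub3, Ccna2, Cdc25c, Kif20a, Nusap1, Prc1 and Ube2c on the other strand, so their counts are uncertain to that extent.

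Subunits of 1 complex differed in direction. These complexes were picked after the values were seen. Of the 4 subunits of the NDC80 complex, Nuf2, Ndc80 and Spc25 were higher in FLICs than in ES cells, both untreated, while Spc24 was lower, with log2 fold changes of 0.96, 0.84, 0.71 and -0.75. With OHT all 4 were called in the same directions. Spc25 had 93.5 CPM in OHT-treated FLICs and 84.4 CPM in untreated FLICs, against 55.3 and 54.2 CPM in OHT-treated ES cells and 52.8 and 50.5 CPM in untreated ES cells. Spc24, which pairs with Spc25, had 46.6 CPM in OHT-treated FLICs and 54.6 CPM in untreated FLICs, against 72.7 and 89.7 CPM in OHT-treated ES cells and 96.5 and 87.2 CPM in untreated ES cells. The FLICs libraries were thus highest of all for Spc25 and lowest of all for Spc24. In the chromosomal passenger complex, Cdca8, the gene of borealin, was lower in untreated FLICs (-0.95 ± 0.20; edgeR adjusted p = 0.00926) while Aurkb, Birc5 and Incenp were not called. Racgap1, the partner of Kif23 in centralspindlin, was higher (0.59 ± 0.20; edgeR adjusted p = 0.0463), against -0.48 for Kif23.

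In the list of DREAM and MuvB genes, whose complexes act on mitotic promoters, 4 of 12 were higher and 3 lower in FLICs than in ES cells, both untreated. That is 58.3% called, near the 54.9% of all genes, and the median log2 fold change was 0.03. Mybl2, which encodes B-Myb, had 72.5 CPM in OHT-treated FLICs and 93.8 CPM in untreated FLICs, against 741 and 629 CPM in OHT-treated ES cells and 854 and 795 CPM in untreated ES cells. Both FLICs libraries lay far below every ES cell library (-3.14 ± 0.22; edgeR adjusted p = 0.000203). Rbl2, which encodes p130, a pocket protein of DREAM, was higher (2.04 ± 0.34; edgeR adjusted p = 0.00444), as was Rbl1, which encodes p107 (0.97 ± 0.18; edgeR adjusted p = 0.00574), while E2f4 was lower (-1.01 ± 0.29). In ES cells with OHT, 0 of these 12 genes were called by edgeR and 0 by DESeq2, with 3 at an unadjusted p under 0.05 (18.3% of all genes), the smallest adjusted p being 0.150 (Rbl1, -0.60 ± 0.15).

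Of 11 G2 brakes and checkpoint kinases, 1 was higher and 5 were lower in untreated FLICs. That is 54.5% called, against 54.9% of all genes, and the median log2 fold change was -1.16, against -0.11 over all genes. The lower ones were led by Sfn, the gene of the scaffold protein stratifin, at -5.36 ± 0.26 (edgeR adjusted p = 6.67e-05), Cdkn1a, the gene of the CDK inhibitor p21, at -4.38 ± 0.44 (edgeR adjusted p = 0.000618), and Chek2 at -1.62 ± 0.20 (edgeR adjusted p = 0.00126). Gadd45g was the gene that was higher (5.15 ± 0.26; edgeR adjusted p = 7.23e-05). Cdkn1a and Sfn are p53 targets, and Trp53 was low in the same FLICs libraries, as given above; its part was not tested. In ES cells with OHT, edgeR called 0 of the 11, with 5 log2 fold changes positive and 6 negative. At an unadjusted p under 0.05 there were 3, all higher (18.3% of all genes in either direction), and DESeq2 called 3, against 2.54% of all genes. Log2 fold changes of the list ran from -0.76 to 1.82, and the smallest edgeR adjusted p was 0.0501. Gadd45a was at 1.04 ± 0.16 (edgeR adjusted p = 0.0700). Gadd45g had 5.59 and 5.06 CPM in OHT-treated ES cells, against 1.82 and 1.22 CPM in untreated ES cells.

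The other mitotic lists had calls in both directions between untreated FLICs and untreated ES cells, where 26.2% of all genes were higher and 28.7% lower. Of 17 outer kinetochore and Ska genes, 4 were higher and 3 lower, led by Knstrn (1.23 ± 0.23) among the higher ones and Kntc1 (-0.77 ± 0.16) among the lower ones. Of 15 genes of the inner kinetochore, 3 were higher and 4 lower, with Cenpq at 1.46 ± 0.17 and Cenpm at -2.09 ± 0.39. Of 17 genes of the anaphase-promoting complex and its regulators, 4 were higher and 2 lower, with the subunit Anapc4 at 1.30 ± 0.16 and the activator Fzr1 at -1.16 ± 0.24. Among 37 other spindle and cytokinesis genes, 6 were higher and 12 lower. The lower ones were led by Gtse1 (-2.14 ± 0.24), Ccnf (-1.29 ± 0.20), Kif18b (-1.23 ± 0.24) and Cit (-1.22 ± 0.17). In ES cells with OHT, edgeR called 0 genes of these 4 lists. At an unadjusted p under 0.05 there were 1 of the outer kinetochore genes, 2 of the inner, 1 of the anaphase-promoting complex and 7 of the other spindle genes, where 18.3% of all genes were. DESeq2 called 1 inner kinetochore gene and 1 other spindle gene, against 2.54% of all genes.

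**Figure D5:**
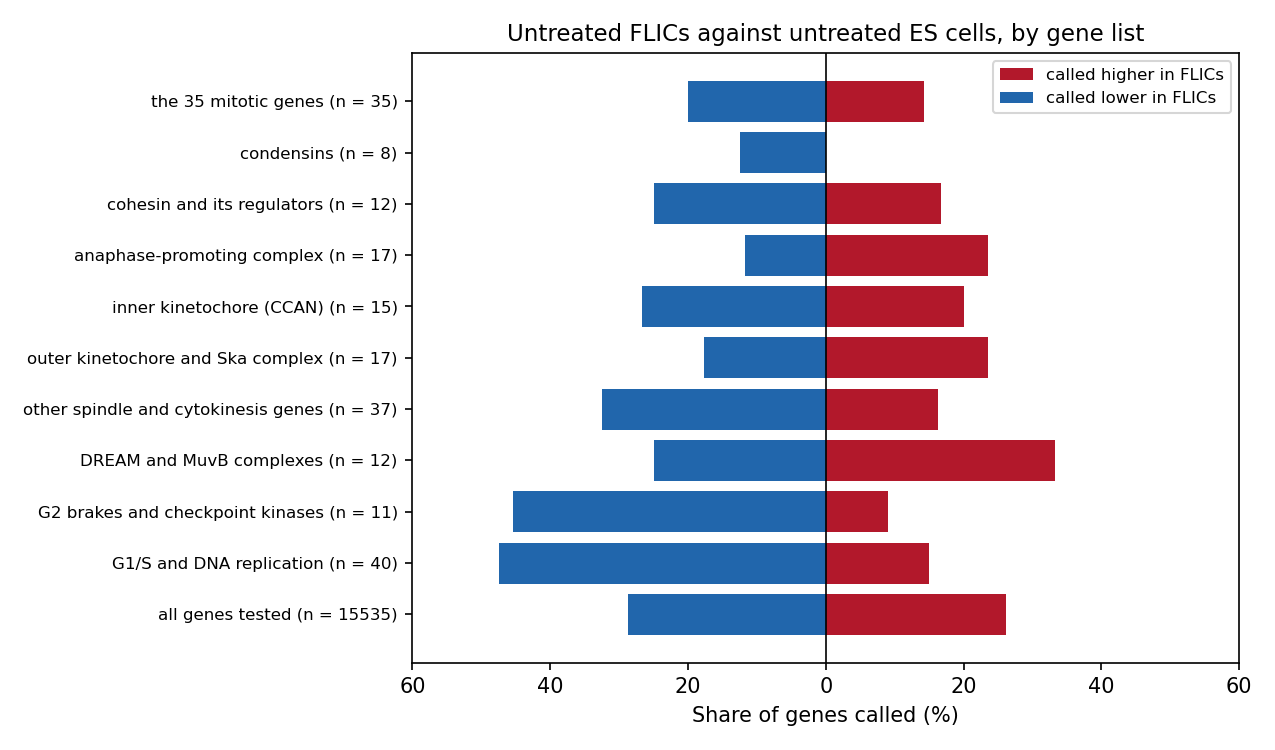
Share of each gene list called lower (left bars) and higher (right bars) in FLICs than in ES cells, both untreated, in percent, with the number of genes tested. The 35 mitotic genes have shorter bars on both sides (5 and 7 genes) than all genes tested (26.2% higher and 28.7% lower), and the list of G1/S and DNA replication has 47.5% lower.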

How the data were processed

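The deposited values were whole-number read counts per gene with a gene length, for 6 libraries prepared from total RNA with a stranded TruSeq kit, according to the labels' protocols. Salmon, DESeq2 and GRCm38 are named without role or version, per the submitters' processing notes, and whether the counting used strand is not given in the sources used here. Among 22600 gene identifiers, 22509 were matched to a symbol. No per-sample column was left unused.

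Counts were filtered by edgeR's filterByExpr, TMM-scaled and fitted with edgeR 4.0.16 (R 4.3.3, limma 3.58.1) as 1 mean per group over all 6 libraries, with quasi-likelihood tests and Benjamini-Hochberg adjustment over 15535 genes with calls made at 0.05. Only the ES cell pairs gave residual degrees of freedom (2). FLICs with and without OHT, with 1 library each, were compared by size alone. The scripts were tested on simulated data. Alternatives were DESeq2 1.42.0, scaling by RLE, a stricter count filter (at least 5 CPM in 2 libraries), none at all, a replicate block, and each ES cell library left out.

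The 35 genes, the other lists and the tests were chosen with earlier results of these data known. All 35 were open to description. From each other list, at most 4 called genes per comparison with the largest change and at least 5 CPM in 1 group could be named. Where none was called, the 2 with the smallest p could be. Not every gene that this rule allows is named. Complex partners were named after their values were seen. Promoter letters were searched in RefSeq windows on GRCm38.p6, the build of the counts per the submitters' processing notes.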

Additional observations from a re-analysis of the deposited data

How the results depend on the processing

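With 1 ES cell library left out, the members called in ES cells with OHT ran from 0 to 3 higher and from 0 to 11 lower. In untreated FLICs against untreated ES cells they ran from 0 to 10 higher and from 2 to 13 lower, and with OHT in both from 1 to 9 higher and from 2 to 16 lower. The difference of OHT effects had 0 to 3 higher and 0 lower. Under RLE scaling, DESeq2, either filter and the block the calls of these 35 genes in ES cells with OHT and in the difference of effects stayed at 0. Between untreated FLICs and untreated ES cells, Kif2c was not called under RLE scaling or with no count filter. Mad2l1 was not called there with no count filter or with the block. With OHT in both cell types, Cdc20 and Kif23 were not called with no count filter. The other calls of the fit reported held in these fits. OHT against untreated FLICs stayed at 0 under every alternative. That size rule uses the FLICs libraries alone, which no alternative leaves out. Differences of the 35 genes ran only from -0.35 to 0.30 in the fit reported, so this result says little about stability. With an untreated ES cell library left out, the spread came from the OHT-treated pair alone. With an OHT-treated one left out, it came from the untreated pair alone. The shares of all genes called, given above for most of these fits, shifted as well. The part of the spread in these shifts was not tested. Over all genes, OHT in ES cells gave 81 higher and 2 lower in the fit reported, 285 and 86 by DESeq2, 236 and 26 with no count filter, 44 and 2 with the 5 CPM filter, and 814 and 392 with the block.

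The replicate block used the ES cell numbers in the titles. In untreated FLICs against untreated ES cells it called 4 members higher and 11 lower, where 7 were lower without it. Over all genes it called 28.3% higher and 32% lower there, against 26.2% and 28.7% without it. With OHT it called 3 higher and 8 lower, against 30.8% and 32% of all genes. The labels do not say that equal numbers pair samples, and the deviations of the 2 pairs correlated at 0.345.

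Of 105 log2 fold changes of members, 27 changed sign in some fit, and none of these was called in the fit reported. Log2 fold changes in ES cells with OHT with the sign turned were under the 5 CPM filter Ccnb1 0.0096, Kif11 0.046, Kif23 0.060, Kif2c 0.052, Mad2l1 0.055, Nuf2 0.024, and under DESeq2 Kif11 0.021, Kif23 0.035, Kif2c 0.026, Mad2l1 0.029, and under RLE scaling Kif11 0.021, Kif23 0.035, Kif2c 0.026, Mad2l1 0.029, and under no count filter Incenp -0.0038, and under the replicate block Incenp -0.0036. Log2 fold changes in FLICs against ES cells with OHT with the sign turned were under the 5 CPM filter Aurkb -0.051, and under DESeq2 Aurkb -0.016, and under RLE scaling Aurkb -0.016, and under the replicate block Pttg1 0.077. The ranges over replicates left out, in ES cells with OHT, were Birc5 -0.33 to 0.12, Bub1 -0.26 to 0.041, Bub3 -0.031 to 0.103, Ccna2 -0.019 to 0.22, Ccnb1 -0.25 to 0.14, Cenpe -0.51 to 0.16, Foxm1 -0.82 to 0.16, Incenp -0.18 to 0.21, Kif11 -0.18 to 0.15, Kif20a -0.057 to 0.27, Kif23 -0.15 to 0.15, Kif2c -0.092 to 0.085, Mad2l1 -0.12 to 0.084, Nusap1 -0.036 to 0.37, Top2a -0.19 to 0.016, Tpx2 -0.34 to 0.028, Ttk -0.41 to 0.047, Ube2c -0.12 to 0.18. The ranges over replicates left out, in FLICs against ES cells with OHT, were Aurkb -0.14 to 0.21, Cenpe -0.43 to 0.21, Foxm1 -0.11 to 0.84, Kif11 -0.013 to 0.29, Nusap1 -0.23 to 0.15, Pttg1 -0.16 to 0.044. The ranges over replicates left out, in untreated FLICs against untreated ES cells, were Ccna2 -0.15 to 0.089, Prc1 -0.104 to 0.037. 

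Counts per library were high for all 35 genes, with 401 the lowest. Each FLICs group is a single library, and 2 residual degrees of freedom leave small differences undetectable.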

Other observations

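Genes of G1/S and DNA replication had 6 of 40 called higher and 19 lower in untreated FLICs against untreated ES cells and a median log2 fold change of -0.58, where over all genes 26.2% were higher, 28.7% lower and the median was -0.11. Among them Ccne1, the cyclin that drives entry into S phase, was lower (-1.87 ± 0.24; edgeR adjusted p = 0.00157), as was Ccnd3 (-1.72 ± 0.26; edgeR adjusted p = 0.00295). Ccnd2, another D-type cyclin, was higher (4.42 ± 0.65; edgeR adjusted p = 0.00256), and so was Ccne2 (1.70 ± 0.21; edgeR adjusted p = 0.00151). No difference between these lists and the mitotic genes was tested.

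Of 12 genes of cohesin and its regulators, 2 were higher and 3 lower in untreated FLICs against untreated ES cells. The condensins and the markers of other cell types below are from the same comparison, where over all genes 26.2% were higher and 28.7% lower. Esco2, which acetylates cohesin in S phase, was lower (-1.79 ± 0.17; edgeR adjusted p = 0.000521), as was Wapl, which releases cohesin from chromatin (-1.51 ± 0.26; edgeR adjusted p = 0.00447). Stag2, a cohesin subunit, was higher (0.88 ± 0.23; edgeR adjusted p = 0.0210), as was Sgo1, which protects centromeric cohesin (0.70 ± 0.15; edgeR adjusted p = 0.0118). Of 8 condensin genes, Ncapd3 was the only one called, and it was lower (-0.86 ± 0.21; edgeR adjusted p = 0.0166). Among the markers of other cell types, 4 of 6 endoderm markers were higher and 2 lower, while 4 of 6 trophoblast markers and 4 of 6 two-cell-like markers were lower. In ES cells with OHT, edgeR called 5 of 6 two-cell-like markers higher, where it called 0.521% of all genes higher. Their summed level was 166 and 124 CPM in the OHT-treated libraries against 7.98 and 7.85 CPM in the untreated ones.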
